A study of Homo sapiens with 15 samples.

Results

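7 genes were followed over 10 times after epidermal growth factor (EGF) in H1975 cells. They were 4 Krüppel-like factors (KLF2, KLF4, KLF6 and KLF10) and 3 genes named immediate early response (IER2, IER3 and IER5). The genes were chosen by their symbol in the annotation of the array, and each of the 7 symbols was carried by 1 probe set among the 14675 named genes of the series. H1975 is an established line of human lung adenocarcinoma that carries a mutant EGF receptor, so it models 1 tumour. Cells were kept overnight in medium without serum, and all groups then received EGF at 50 ng/ml. The groups were 0.5 h (n = 2 arrays), 1, 2, 4, 6, 8, 12 and 18 h (n = 1 each), 24 h (n = 3) and 48 h (n = 3), 15 Human Gene 2.0 ST arrays in all. Unstimulated cells were not analysed here, so time after EGF and time without serum cannot be told apart. Nothing in the labels says that arrays of the same time came from separate cultures, and the p-values then measure the spread between these arrays, which may be technical.

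EGF binds its receptor and switches on the RAS, RAF, MEK and ERK cascade, which acts on transcription factors already present in the nucleus. The first genes to respond need no new protein and make short-lived RNAs, many of them for transcription factors. Krüppel-like factors bind GC-rich promoter sequences with zinc fingers at their carboxyl end. KLF2 is best known for holding endothelial cells and T cells in a quiet state, KLF4 for epithelial differentiation and reprogramming, KLF6 as a tumour suppressor that activates the cell cycle inhibitor gene CDKN1A, and KLF10 as an early target of TGF-beta that opposes proliferation. The IER genes are named for a fast response. IER2 acts in the nucleus, IER3 (IEX-1) modulates cell death and ERK signalling, and IER5 binds the phosphatase PP2A and promotes activity of the heat shock factor HSF1.

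Levels are SCAN scores, a standardised log-scale value that places a probe set relative to the others of its own array. All differences are in SCAN units, and because the size of 1 unit as a fold is not known, no fold is given. Scores of different genes come from different probes, so the rank of a gene's mean among all genes is only a rough guide to its level. The median score of the 15 arrays lay between 0.0644 and 0.0789, and the number of arrays limits the precision. The epithelial markers EPCAM, KRT7, KRT8, KRT18 and KRT19 (5 of 6 listed were measured) summed to between 9.06 and 9.42 on every array. The lung lineage factor NKX2-1 scored between 1.31 and 1.62 and the alveolar protease NAPSA between 0.503 and 1.97, while the surfactant genes SFTPB and SFTPC stayed at or below 0.339 and 0.176. KLF2 and KLF4 are abundant in endothelium, and the endothelial markers VWF and CLDN5 (2 of 5 measured) summed to between -0.115 and 0.111. The fibroblast markers LUM and DCN (2 of 5) summed to between -0.108 and 0.0577, and the blood cell markers CD14 and LYZ (2 of 6) to between -0.108 and 0.163. Whole cultures were profiled, so fewer cells of a state and less RNA per cell cannot be told apart.

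The 7 genes did not share a single time course. KLF6 was highest at 0.5 h, KLF2 and IER2 at 0.5 to 1 h, IER3 at 1 to 2 h and KLF10 at 2 h, while IER5 was highest at 48 h and KLF4 varied least. An F test of equal means over the 10 times (limma, adjusted over all genes) called 6 of the 7, beside 31.8% of all 14675 genes. The range of time means was 0.64 for KLF10, 0.48 for KLF6, 0.47 for IER3, 0.31 for IER5, 0.30 for KLF2, 0.27 for IER2 and 0.14 for KLF4. The median range of all genes was 0.15, and the 90th percentile was 0.28. Only KLF4 had a range below that median. With a smooth curve (a natural cubic spline in log2 time) in place of separate means, KLF10 and IER3 did not pass (adjusted p = 0.0739 and 0.112). A curve this smooth cannot follow a narrow peak closely, so it is a weak test for the peaks of KLF10 and IER3. IER2 did not pass without the 4 h array (adjusted p = 0.0712).

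**Figure D1:**
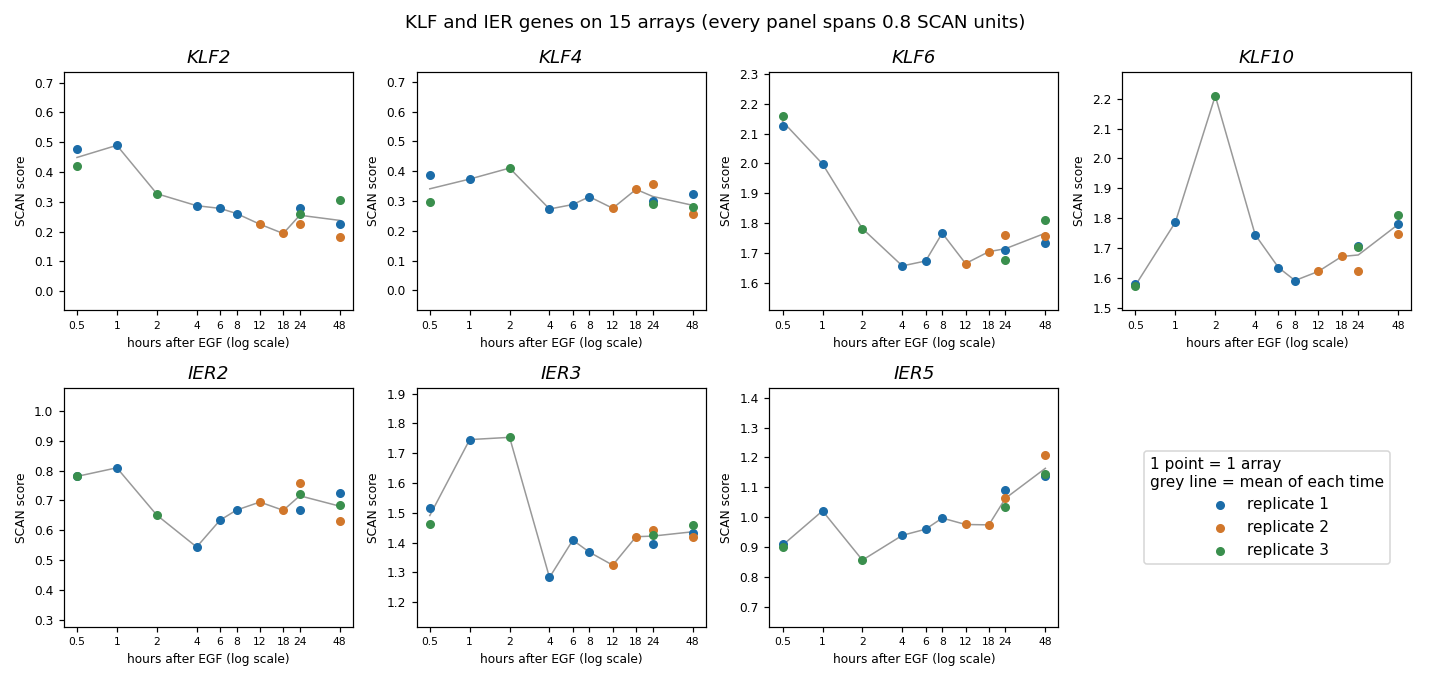
SCAN score of each gene (vertical axis, 0.8 units in every panel) against hours after EGF on a log scale. Each point is 1 of 15 arrays, coloured by the replicate number of its label, and the grey line joins the time means. KLF10 reaches 2.21 on the single 2 h array and IER5 is highest on the 3 arrays of 48 h.

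KLF6 was highest on the 0.5 h arrays, the first time sampled. It scored 2.12 and 2.16 on the 0.5 h arrays, 2.00 at 1 h and 1.78 at 2 h, then 1.66 at 4 h, 1.67 at 6 h, 1.77 at 8 h, 1.66 at 12 h and 1.70 at 18 h. The 24 h arrays scored 1.71, 1.76 and 1.68, and the 48 h arrays 1.73, 1.76 and 1.81. Both 0.5 h arrays lay above all 13 later arrays. From 0.5 to 1 h (n = 3) to 4 to 8 h (n = 3) the gene fell by 0.37 ± 0.031 SCAN units (standard error, SE; adjusted p = 6.07e-07), and the arrays of these windows did not overlap. At 24 h it was still 0.43 ± 0.034 below 0.5 h (adjusted p = 1.07e-07) and at 48 h 0.37 ± 0.034 (adjusted p = 9.84e-08). In the order of its means, 0.5 h stood 0.14 above 1 h (adjusted p = 0.298) and 1 h stood 0.22 above 2 h (adjusted p = 0.0730), so these neighbours were not separated. All later neighbours differed by 0.052 or less.

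KLF2 was highest at 0.5 and 1 h, at a low level, with its mean score at percentile 45.4 of all genes. Its scores were 0.477 and 0.421 at 0.5 h, 0.489 at 1 h, 0.327 at 2 h, 0.287 at 4 h, 0.278 at 6 h, 0.261 at 8 h, 0.225 at 12 h and 0.194 at 18 h. At 24 h they were 0.279, 0.226 and 0.261, and at 48 h 0.225, 0.182 and 0.306. The 3 arrays of 0.5 and 1 h were the highest of the 15, with no overlap with any later array. The gene fell by 0.19 ± 0.033 between 0.5 to 1 h and 4 to 8 h (adjusted p = 0.00203), and at 24 h it lay 0.19 ± 0.036 below 0.5 h (adjusted p = 9.97e-04). No step between neighbours in the order of its means passed.

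IER2 was also highest at 0.5 and 1 h. Its scores were 0.780 and 0.780 at 0.5 h, 0.809 at 1 h, 0.651 at 2 h, 0.544 at 4 h, 0.633 at 6 h, 0.667 at 8 h, 0.694 at 12 h and 0.667 at 18 h. The 24 h arrays gave 0.667, 0.757 and 0.722, and the 48 h arrays 0.726, 0.630 and 0.686. Its lowest array was that of 4 h, and the later arrays lay between that point and the first hour. It fell by 0.18 ± 0.032 from 0.5 to 1 h to 4 to 8 h (adjusted p = 0.00254), again with no overlap. Between 0.5 h and 24 h the difference was 0.065 ± 0.035 (95% interval -0.00826 to 0.138), which did not pass. Between 0.5 h and 48 h it was 0.100 ± 0.035 (adjusted p = 0.0387), a call that ended after median centring of the arrays (adjusted p = 0.0548). It also ended without either 0.5 h array (replicates 1 and 3) or without replicate 2 or 3 of 48 h, with adjusted p between 0.0692 and 0.154.

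IER3 rose after 0.5 h and stayed high for both following times. It scored 1.52 and 1.46 at 0.5 h, 1.75 at 1 h and 1.75 at 2 h, then 1.28 at 4 h, 1.41 at 6 h, 1.37 at 8 h, 1.32 at 12 h and 1.42 at 18 h. At 24 h the scores were 1.40, 1.44 and 1.43, and at 48 h 1.43, 1.42 and 1.46. The 1 h and 2 h arrays, which carry different replicate numbers, differed by 0.0076. The 1 h array stood 0.25 ± 0.041 above 0.5 h (adjusted p = 0.0118), and the 2 h array stood 0.26 ± 0.041 above it (adjusted p = 0.00215). By 4 h the gene had dropped by 0.47 ± 0.048 from 2 h (adjusted p = 3.34e-05, beside 1.96% of all genes called in that step). The mean of 0.5 and 1 h exceeded that of 4 to 8 h by 0.26 ± 0.028 (adjusted p = 1.33e-05), with no overlap of the arrays. Without the single 1 h array this difference was 0.14 (adjusted p = 0.0189). Scores at 4 and 12 h were also below 0.5 h (by 0.21 and 0.17, adjusted p = 0.0121 and 0.0335). From 24 to 48 h the difference was -0.015 ± 0.028, with a 95% interval from -0.0727 to 0.0437.

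KLF10 was highest on the 2 h array. It scored 1.58 and 1.57 at 0.5 h, 1.79 at 1 h, 2.21 at 2 h, 1.74 at 4 h, 1.63 at 6 h, 1.59 at 8 h, 1.62 at 12 h and 1.67 at 18 h. The 24 h arrays gave 1.71, 1.62 and 1.70, and the 48 h arrays 1.78, 1.75 and 1.81. The 2 h array stood 0.64 ± 0.045 above 0.5 h (adjusted p = 1.27e-07), 0.42 above 1 h (adjusted p = 2.45e-04, beside 0.641% of all genes called in that step) and 0.47 ± 0.052 above 4 h (adjusted p = 8.35e-05). This peak rests on 1 array, which was assumed to vary like the replicated times. That array carries replicate number 3, and the 0.5 h array of the same number scored 1.57. Without the 2 h array the F test still called the gene (adjusted p = 0.00178).

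Besides its peak, KLF10 was higher late than at the first time. The level at 48 h exceeded that at 0.5 h by 0.20 ± 0.033 (adjusted p = 1.22e-04). The level at 24 h exceeded that at 0.5 h by 0.10 ± 0.033 (adjusted p = 0.0440). That second call ended without either 0.5 h array or without replicate 1 or 3 of 24 h (adjusted p between 0.131 and 0.176). A contrast of the first hour with 4 to 8 h passed over the peak and gave 0.024 ± 0.031 (adjusted p = 0.764).

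IER5 rose late. Its scores were 0.911 and 0.901 at 0.5 h, 1.02 at 1 h, 0.856 at 2 h, 0.939 at 4 h, 0.959 at 6 h, 0.997 at 8 h, 0.975 at 12 h and 0.974 at 18 h. They reached 1.09, 1.07 and 1.03 at 24 h and 1.14, 1.21 and 1.14 at 48 h. All 3 arrays of 48 h lay above the 12 others, and all 3 of 24 h lay above every earlier array. The gene was higher by 0.16 ± 0.032 at 24 h (adjusted p = 0.00194) and by 0.26 ± 0.032 at 48 h (adjusted p = 5.52e-06) than at 0.5 h. The single 1 h array stood 0.11 ± 0.043 above 0.5 h (adjusted p = 0.431), so an early rise of IER5 was not detectable with these arrays. The first hour and 4 to 8 h differed by -0.0016 ± 0.029 (95% interval -0.0636 to 0.0603).

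KLF4 passed neither the F test nor any of the 5 comparisons of windows or replicated times. Its mean score lay at percentile 46.2 of all genes, and whether this low level limits its range was not tested. Among all pairs of single times, only that of 48 h with the lone 2 h array passed. KLF4 was lower at 48 h by 0.12 ± 0.044 (adjusted p = 0.0468), adjusted over genes and not over the pairs. It scored 0.386 and 0.296 at 0.5 h, 0.374 at 1 h, 0.410 at 2 h, 0.273 at 4 h, 0.288 at 6 h, 0.314 at 8 h, 0.276 at 12 h and 0.339 at 18 h. At 24 h the scores were 0.301, 0.356 and 0.290, and at 48 h 0.322, 0.256 and 0.279. The 0.5 h arrays lay apart, and the later arrays fell on both sides of the lower one. Its F test gave adjusted p = 0.316. The first hour exceeded 4 to 8 h by 0.065 ± 0.032 (95% interval -0.00225 to 0.133), so a difference of the size measured for KLF2 lay outside this interval.

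**Figure D2:**
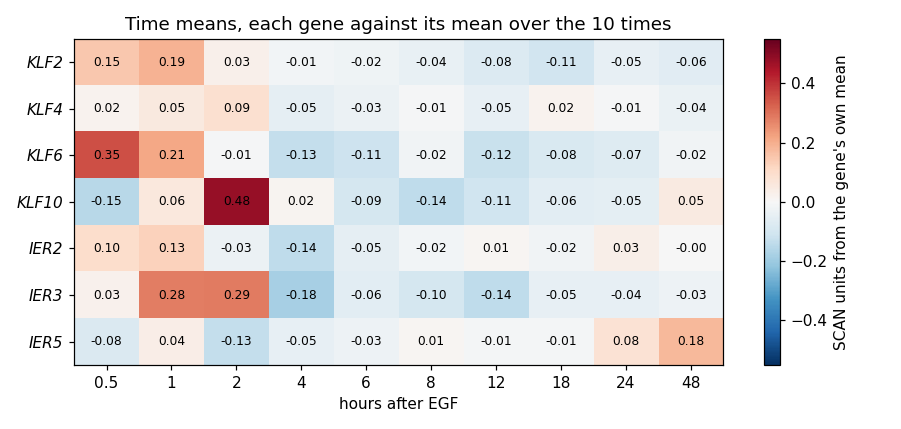
Time mean of each gene minus its own mean over the 10 times, in SCAN units, by hours after EGF. Red is above and blue below the gene's own mean. The highest cell lies at 0.5 h for KLF6 (0.35) and at 1 h for KLF2 (0.19) and IER2 (0.13). It lies at 2 h for KLF4 (0.089), IER3 (0.29) and KLF10 (0.48), and at 48 h for IER5 (0.18). Only for KLF10 and IER5 did the highest time differ from the next highest (limma, adjusted p under 0.05).

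Between 0.5 to 1 h and 4 to 8 h, 4 of the 7 genes (KLF2, KLF6, IER2 and IER3) passed, all higher in the first hour. Among all genes 4.32% passed, 1.72% higher and 2.6% lower in the first hour (253 and 381 genes, and 301 and 257 after quantile normalisation). The median difference of the 7 was 0.18 and that of all genes -0.0060. Without replicate 3 of 0.5 h, every array of both windows carried replicate number 1, and the same 4 genes passed. Between 4 to 8 h and 18 to 24 h none of the 7 passed in limma, beside 17.6% of all genes, 10.6% higher and 6.99% lower at 4 to 8 h (1552 and 1026 genes, and 1251 and 1277 after quantile normalisation). IER2 (-0.076 ± 0.031) and IER3 (-0.068 ± 0.028) had an unadjusted p of 0.0252 each and adjusted p of 0.108 each, and the other 5 had an unadjusted p above 0.05. For IER3 the difference passed after quantile normalisation (-0.090, adjusted p = 0.0302) or without the 6 h array (adjusted p = 0.0456). Without the 18 h array IER2 and IER5 passed (adjusted p = 0.0331 and 0.0237).

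Between 0.5 h and 24 h, 4 of the 7 passed, beside 17.2% of all genes (7.26% higher and 9.96% lower at 0.5 h). KLF2 and KLF6 were higher and KLF10 and IER5 lower at 0.5 h. Between 0.5 h and 48 h, 5 of the 7 passed, beside 28.6% of all genes (13.1% higher and 15.5% lower at 0.5 h), with IER2 added to the same 4. These comparisons share the 0.5 h arrays, as do the comparisons of 0.5 h with each single time. Of the 7 genes, 1 passed at 1 h (0.273% of all genes), 3 at 2 h (1.61%), 3 at 4 h (2.04%), 1 at 6 h (1.04%), 1 at 8 h (1.13%), 3 at 12 h (3.38%) and 2 at 18 h (10.7%). KLF6 was the gene that passed at 6 and 8 h, by -0.47 ± 0.045 and -0.37 ± 0.045, and it passed at every time from 2 h on. KLF2 passed at 12 h (-0.22 ± 0.049) and 18 h (-0.25 ± 0.049), and IER2 at 4 h (-0.24 ± 0.047). The arrays of 12 and 18 h carry replicate number 2, and those of 0.5 h carry 1 and 3. In these comparisons time and replicate number cannot be told apart. Replicate 2 also gave the lowest KLF2 score at 24 h (0.226) and at 48 h (0.182).

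The comparison of 24 h with 48 h was the best replicated, with 3 arrays on each side. KLF10 was higher at 48 h by 0.10 ± 0.030 (adjusted p = 0.0292) and IER5 by 0.10 ± 0.029 (adjusted p = 0.0253), and for both the arrays did not overlap. Among all genes 12.9% passed, 6.68% higher and 6.19% lower at 24 h. Both calls ended without some single array. That of KLF10 ended without replicate 2 of 24 h or replicate 1 or 3 of 48 h (adjusted p between 0.0770 and 0.139). That of IER5 ended without replicate 2 or 3 of 24 h or replicate 2 of 48 h (adjusted p between 0.0562 and 0.130). For the other 5 genes the arrays of 24 h and 48 h overlapped and the differences lay between -0.052 (KLF6) and 0.035 (IER2). Lack of overlap was not tied to a call: between 0.5 h and 24 h the arrays of IER2 and IER3 did not overlap, and neither gene passed. How often arrays fail to overlap among all genes was not counted for any comparison.

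**Figure D3:**
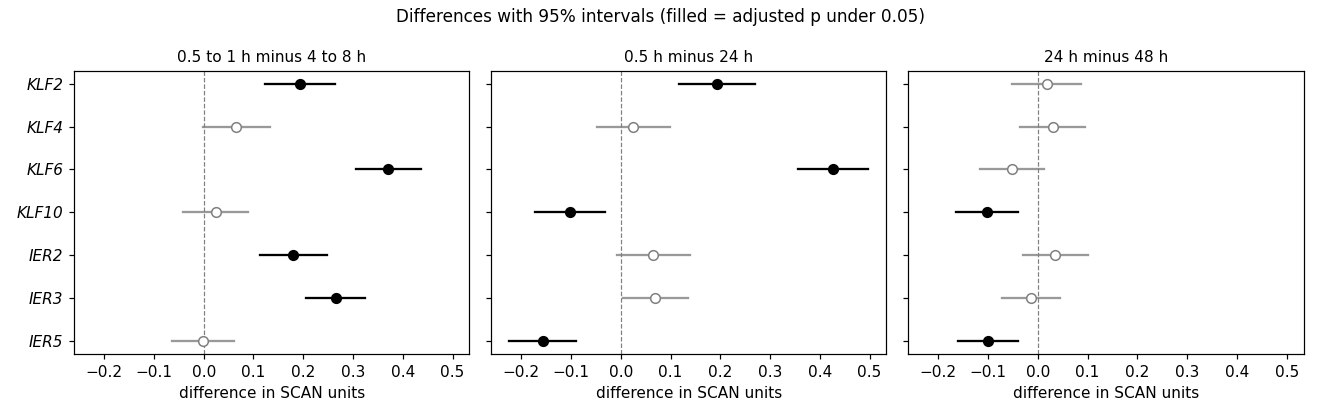
Difference of each gene in SCAN units with its 95% interval (horizontal axis) in 3 comparisons. Filled points have an adjusted p under 0.05 over all 14675 genes. KLF6 lies at 0.37 for 0.5 to 1 h minus 4 to 8 h and at 0.43 for 0.5 h minus 24 h, and KLF10 and IER5 lie below 0 for 0.5 h minus 24 h and for 24 h minus 48 h.

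The promoters of 3 genes that were high in the first hour (KLF2, KLF6 and IER2) and of the late-rising IER5 are shown so that the sites of the factors that ERK signalling acts on can be looked for. RefSeq promoter entries of GRCh38.p14 were used for 5 of the 7 genes (KLF2, KLF4, KLF6, IER2 and IER5). Each line gives the 150 bases before the start, read 5′ to 3′ on the strand of the gene. They lie at chr19:16324676-16324825 (KLF2, plus strand), chr10:3785210-3785359 (KLF6, minus strand), chr19:13150261-13150410 (IER2, plus strand) and chr1:181088550-181088699 (IER5, plus strand). Capitals mark the GC box core GGGCGG on either strand in KLF2, KLF6 and IER2, the MEF2 box and the TATATA run in KLF2, the ETS site CCGGAAG (minus strand) in IER2 and the TATATA run in IER5.
KLF2: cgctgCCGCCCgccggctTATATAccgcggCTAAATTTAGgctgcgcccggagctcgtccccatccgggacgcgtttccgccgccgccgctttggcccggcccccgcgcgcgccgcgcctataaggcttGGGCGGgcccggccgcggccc
KLF6: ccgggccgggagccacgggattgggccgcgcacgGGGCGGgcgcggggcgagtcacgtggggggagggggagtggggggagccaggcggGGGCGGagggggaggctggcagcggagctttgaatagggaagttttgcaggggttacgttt
IER2: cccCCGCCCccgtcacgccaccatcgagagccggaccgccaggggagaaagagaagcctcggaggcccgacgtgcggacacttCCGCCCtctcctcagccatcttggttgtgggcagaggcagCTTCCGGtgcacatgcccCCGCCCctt
IER5: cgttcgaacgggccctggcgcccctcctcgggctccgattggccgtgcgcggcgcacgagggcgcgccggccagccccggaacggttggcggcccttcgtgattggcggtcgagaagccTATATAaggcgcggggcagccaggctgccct

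In the 250 bases before the start, the GC box core, which SP and KLF proteins bind, was found 4 times in KLF2, 4 in KLF4, 2 in KLF6, 3 in IER2 and 0 times in IER5. Of 35116 promoters 42.6% held at least 1 such core in a window of this length. The ETS site CCGGAAG, bound by ternary complex factors downstream of ERK among others, was found in IER2 alone (8.52% of promoters). None of the 5 windows held a CArG box, the site of serum response factor (1.16% of promoters), the CRE palindrome TGACGTCA (1.65%) or the AP-1 site TGAGTCA or TGACTCA (4.2%). Motifs were searched on both strands, and the CRE and AP-1 letters do not overlap as full matches. A MEF2 box and a TATA run (TATAAA or TATATA) were added to the search after the windows had been read. The MEF2 box was found in KLF2 (2.8% of promoters), and the TATA run in KLF2 and IER5 (12.8%). MEF2 factors switch on KLF2 downstream of the kinase ERK5 in endothelial cells.

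Of 14 other KLF genes listed, 13 were measured, and in the first hour against 4 to 8 h 2 passed (4.32% of all genes passed), both higher in the first hour, with a list median of 0.0086. They were KLF7 (0.18 ± 0.027, adjusted p = 5.36e-04), a factor of neuronal growth, and KLF11 (0.12 ± 0.028, adjusted p = 0.0225), a relative of KLF10. KLF11 was highest at 2 h, at 1.59, as KLF10 was, while KLF7 returned to 1.63 at 48 h, the same as its 1 h score. From 24 to 48 h, 4 of 13 rose and 0 fell, beside 6.19% of all genes that rose and 6.68% that fell: KLF5 (by 0.14), KLF7 (0.12), KLF16 (0.10) and KLF8 (0.098). Of the 9 related SP genes, 0 passed in limma in the early comparison, and 1 had an unadjusted p under 0.05. From 24 to 48 h 2 of the 9 SP genes passed, SP3 and SP6, both higher at 48 h, where 6.19% of all genes were higher.

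**Figure D4:**
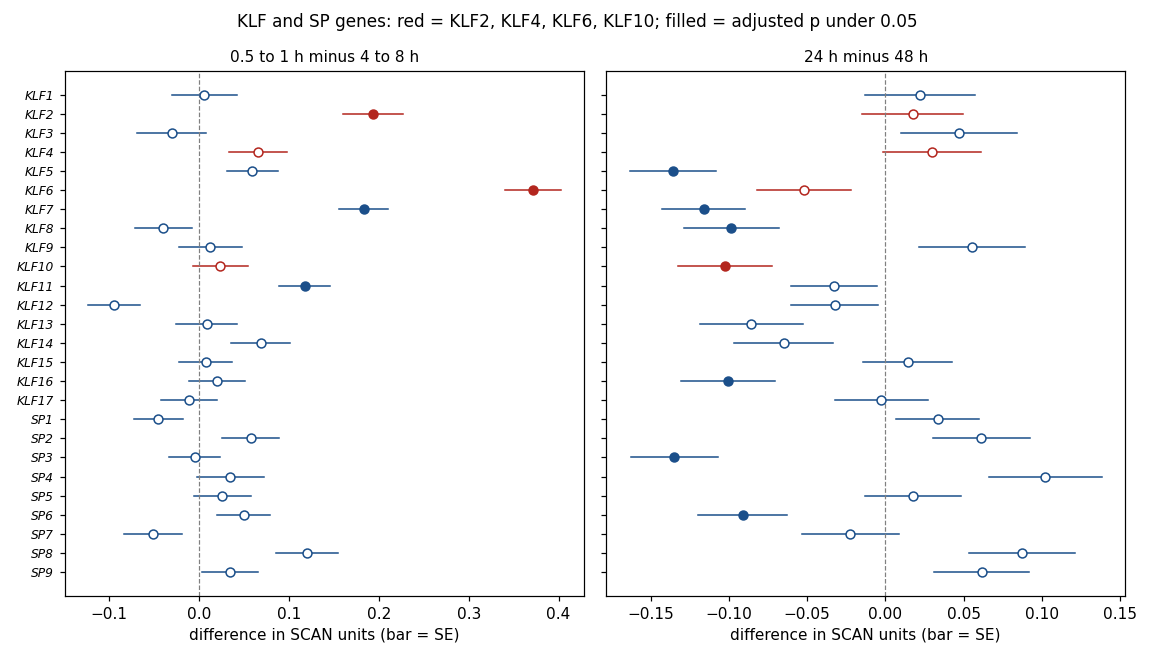
Difference in SCAN units with its SE for KLF and SP genes in the first hour against 4 to 8 h (left) and 24 h against 48 h (right). Red marks KLF2, KLF4, KLF6 and KLF10, and filled points have an adjusted p under 0.05. KLF6 (0.37) has the largest early difference of the genes drawn.

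Genes listed as immediate-early gave the setting for the 7. Of 19 listed transcription factors 15 were measured, and 14 were higher in the first hour than at 4 to 8 h with 0 lower (median 0.23), beside 1.72% of all genes higher and 2.6% lower. They were led by EGR1 (1.20 ± 0.030), JUN (0.74 ± 0.028) and FOS (0.57 ± 0.028). Among the effectors of the early response 8 of 17 were measured and 7 were higher in the first hour (median 0.28), led by the matricellular protein gene CCN2 (1.69 ± 0.038) and the phosphatase DUSP1 (0.88 ± 0.032). From 24 to 48 h 6 of the 15 factors were lower at 24 h (6.19% of all genes), among them EGR1 (-0.27 ± 0.029) and JUNB (-0.22 ± 0.032), and 1, FOSL1, was higher (0.26 ± 0.027, beside 6.68% of all genes higher).

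Of 13 genes listed for the ERK5, MEF2 and ternary complex factor inputs 9 were measured. The ternary complex factors ELK1, ELK3 and ELK4 were not among these. In the early comparison 0 of the 9 passed in limma, beside 4.32% of all genes. An unadjusted p under 0.05 was found for 4 of the 9, beside 2553 of all 14675 genes. Of these 4, MAP3K2, MEF2A and MEF2C were lower and MEF2D was higher in the first hour. SRF itself, listed among the factors above, was higher in the first hour by 0.24 ± 0.027 (adjusted p = 2.73e-05). Between 0.5 h and 48 h 4 of the 9 were lower at 0.5 h and 0 higher, beside 15.5% and 13.1% of all genes, with MRTFB, a coactivator of SRF, at -0.28 ± 0.030 and MEF2A at -0.14 ± 0.030. Of 9 genes known as KLF targets in other settings 5 were measured, and 0 passed in the early comparison, beside 4.32% of all genes. SMAD7 (0.068) alone had an unadjusted p under 0.05. Between 0.5 h and 48 h 2 of the 5 were lower at 0.5 h and 0 higher, beside 15.5% and 13.1% of all genes. They were NOS3, the endothelial nitric oxide synthase that KLF2 activates in endothelium (by 0.28 ± 0.032), and CCND1 (cyclin D1, by 0.12 ± 0.034). Between 0.5 h and 24 h, 1 of the 5 was higher at 0.5 h and 1 lower, beside 7.26% and 9.96% of all genes. These were S1PR1 (0.11 ± 0.037, adjusted p = 0.0443) and NOS3 (-0.20 ± 0.032). The time means of S1PR1 were -0.015 at 0.5 h and -0.129 at 24 h, both below the lowest array median of 0.0644. At such a level its difference is hard to read. KLF2 was higher at 0.5 h than at both later times, and a link to the listed KLF targets was not tested.

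Likeness of pattern was measured by Pearson's r of the 10 time means among at least 1072 genes of upper-half level and a range of 0.3 or more. These values share all 15 arrays and are given as descriptions. Genes were picked for their likeness to a member, so a shared highest time largely follows from that choice. The genes most like KLF6 were SNX18 (0.97), the small GTPase gene RHOB (0.96) and the prostaglandin receptor gene PTGER4 (0.93). For KLF2 they were FLJ42393, PTGER4 and the polo-like kinase gene PLK2 (each 0.96). For IER2 they were the survival gene MCL1 (0.95), JUN (0.92) and the chemokine gene CXCL2 (0.91), all highest at 0.5 h. For KLF10 they were the repressor gene SNAI1 (0.89), SAMD4A (0.87) and the kinase gene PLK3 (0.87), all highest on the 2 h array. For IER3 they were the bradykinin receptor gene BDKRB2 (0.94), KLF11 (0.92) and RASA2 (0.92). For KLF4 they were IER3 (0.91), ETS2 (0.89) and the cytokine gene LIF (0.88), although KLF4 itself did not pass the F test. For IER5 they were MAP3K13, WSB1 and AUH (0.91, 0.91 and 0.90), all highest at 48 h. Among the 7 themselves r was 0.87 for KLF2 with KLF6, 0.78 for KLF6 with IER2 and 0.69 for KLF10 with IER3, while r of IER5 with the other 6 lay between -0.43 and 0.19.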

How the data were processed

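EGF-treated H1975 cells were profiled on 15 Human Gene 2.0 ST arrays. The deposited values are SCAN scores: the authors normalised each array on its own with Single Channel Array Normalisation, which corrects probes for GC content and standardises them on a log scale with no step between arrays, mapped probes with the manufacturer's Netaffix v34 annotation and left out arrays they judged outliers. The SCAN version was not found in the sources read. Of 39937 probe sets 15426 had 1 gene symbol, 0 had several and 24511 had none in the platform annotation, and the probe set with the highest mean was kept for each of 14675 genes.

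Time was fitted as a factor with 10 levels in limma 3.58.1 (R 4.3.3), with Benjamini-Hochberg adjustment over all 14675 genes and a threshold of 0.05. Times with 1 array were assumed to vary like the replicated ones. Windows (0.5 to 1, 4 to 8 and 18 to 24 h) were compared as contrasts of time means. The code was tested on simulated data. The text names all 7 genes, up to 4 called genes per list and comparison with the largest differences, and the 3 genes most alike in pattern. In the early comparison SMAD7, MAP3K2, MEF2A, MEF2C and MEF2D were named after their values were seen. The members and lists were chosen with earlier results of these data known. Alternatives were median centring, quantile normalisation, a mean over probe sets, a filter on dim genes, a replicate block, the window as a factor, a spline and leaving out each array. An 18 h array is labelled although the protocol does not list that time.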

Additional observations from a re-analysis of the deposited data

How the results depend on the processing

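Alternatives were run for the F test and the 5 comparisons of windows or replicated times, and none turned the direction of a difference of the 7 genes that had passed there. The mean over probe sets and the filter on dim genes could not do so. Each of the 7 had 1 probe set, and the filter only drops genes. Differences between single times had no alternative. Of the counts over all genes, that of 4 to 8 h against 18 to 24 h moved from 2578 to 1467 with a replicate block, and that of 0.5 to 1 h against 4 to 8 h from 634 to 337 with the window as a factor, where the spread between times counts as error. Leaving out single arrays gave 1472 to 2181 genes for 0.5 h against 24 h (2526 with all arrays, 1472 without replicate 1 of 0.5 h). Same-numbered arrays of 24 and 48 h had residual correlations of 0.0103, 0.0281 and 0.0297, so the numbers were not taken as pairs, although each of these arrays correlated best with its own number. With the replicate block IER2 no longer passed between 0.5 h and 48 h (adjusted p = 0.0802, limma), and no other call on the 7 genes in these comparisons ended. The filter on dim genes removed KLF2 and KLF4. Levels at 1 to 18 h rest on 1 array each, which limits what can be said of the peaks of KLF10 and IER3.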
